A study of Xenopus laevis with 2 samples.

Results

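Ets-domain proteins are transcription factors that share a DNA-binding domain named after the first member, ETS1, and bind sites with a GGA core. Many of them are end points of receptor signalling: FGF and other receptor tyrosine kinase ligands act through Ras, Raf and MEK on ERK, which phosphorylates several Ets factors and changes their activity. In vertebrate embryos the family is known for roles in blood and endothelium, in the nervous system and in FGF-dependent mesoderm. The Ets-domain factors described here were 9 probes for 6 genes, of 21495 gene probes on the array. The probe LOC495059, which the annotation pairs with *elf1* (E74-like factor 1), was chosen because its ratio in caps with active EBF3 was among the lowest on the array. The other 8 probes were found by words in their descriptions that name an Ets factor, not by their values. They were a further *elf1* probe (elf-1-prov), probe pairs for *ets1* (c-ets-1b and ets1a-A-prov) and *ets2* (ets2a-A and LOC397877), and single probes for *etv3* (etv3-prov), *elk3* (elk3-prov) and XER81, a name that RefSeq lists under *etv4*. *Xenopus laevis* has an L and an S copy of many genes, and which copy a probe reports was not tested.

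Animal caps, pieces of prospective ectoderm, were cut from *Xenopus laevis* blastulae at stage 9. Active EBF3 caps came from embryos given 1 ng of mRNA for hGR-Xebf3, EBF3 fused to the hormone-binding part of the human glucocorticoid receptor, and were treated with 30 µM DEX (dexamethasone) for 4.5 hours. The hGR caps came from embryos given 0.4 ng of mRNA for the receptor part alone and received the same DEX treatment, which makes them a control for the hormone. Untreated hGR-Xebf3 caps (1 ng, no DEX) were the reference for both. None of the caps received Noggin, so they were not neuralized, and caps are made from whole pieces of tissue, in which fewer cells of a type and less RNA per cell cannot be told apart.

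The arrays, 2 in all, were two-colour Agilent slides, with the DEX-treated sample in Cy3 and the untreated caps in Cy5 on each. Each comparison rests on 1 array without a dye swap. Values are therefore given with neither p-values nor replicate errors. Within either comparison alone, a dye effect on a single probe cannot be told apart from a difference between caps. The Cy3 channels of the arrays share a dye but lie on different slides. The hGR caps differ from the untreated caps both in DEX and in the mRNA injected. Errors given with ± are those of the scanner software for 1 spot. Those on signals and those on log2 ratios are separate outputs. The ratio error is wider than the signal errors alone would give, so caps are compared by the ratio error. The untreated caps were described in the same words for both arrays, and their Cy5 signals serve as a technical measure. Set against each other after normalization between arrays, these signals had an SD of 0.17 on the log2 scale over 11243 probes well above background, 95% of which lay within 1.25-fold. The corresponding SD between the Cy3 channels, active EBF3 against hGR, was 0.63 over 10010 probes. All 9 Ets probes were uniform and unsaturated on both arrays, and 8 were well above background in all 4 channels, the exception being elk3-prov.

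ELF1 is best known in mammals from lymphoid and endothelial cells, where it regulates genes of both lineages. Here the *elf1* transcript was readily measured in the ectoderm of untreated caps and was low in active EBF3 caps by both of its probes. LOC495059 had a processed signal of 338 ± 21.9 in active EBF3 caps and 8245 ± 124 in the untreated caps on the same array. On the other array, it had 9269 ± 165 in hGR caps and 7474 ± 100 in untreated caps. Thus 3 of the 4 channels lay close together and the active EBF3 channel alone was low. The log2 ratio was -4.61 ± 0.39 for active EBF3 over untreated, a 24.4-fold lower signal, and 0.31 ± 0.17 for hGR over untreated, a 1.24-fold higher signal. Only 10 of 21283 uniform probes had a lower ratio on the active EBF3 array, which is the property that led to its choice.

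The second *elf1* probe, elf-1-prov, gave a dimmer spot with the same order of channels. Its signal was 246 ± 16.5 in active EBF3 caps and 2583 ± 39.5 in untreated caps, and on the other array 2636 ± 50.4 in hGR caps and 2314 ± 34.5 in untreated caps. The log2 ratio was -3.39 ± 0.32 (10.5-fold lower) with active EBF3 and 0.19 ± 0.17 (1.14-fold higher) with hGR. The sign of the hGR ratio depended on the dye normalization, since median centring without a curve gave -0.06 for elf-1-prov and 0.06 for LOC495059. RefSeq lists this name under both *elf1* copies. It was found by name, but it reads the same gene in the same hybridization as LOC495059 and is not independent evidence for it.

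The size of the *elf1* difference rested on a small signal in the active EBF3 channel. Before dye normalization, LOC495059 stood 23.5 units above a local background of 46 units in that channel and 629 units above background in the untreated channel. For elf-1-prov the background-subtracted signals were 17.4 units in active EBF3 caps, over a local background of 43 units, and 194 units in untreated caps. The software called both spots well above background. The log2 ratios of these background-subtracted signals were -4.74 for LOC495059 and -3.47 for elf-1-prov, so the direction was present before the dye curve was applied. On the hGR array the same ratios were -0.55 and -0.67. Every Ets probe was negative there by this measure, from -1.37 for etv3-prov to -0.55 for LOC495059. The sign of the *elf1* values before dye normalization is therefore not read.

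The *elf1* probes differed from each other by 1.22 on the log2 scale on the active EBF3 array and by 0.12 on the hGR array. Among 145 pairs of well-measured probes assigned to 1 gene, the median difference was 0.25 on the active EBF3 array and 94.5% of pairs were closer than the *elf1* pair. In 18 of these pairs at least 1 probe passed 2-fold on the active EBF3 array. In 7 of the 18, the *elf1* pair among them, both probes passed in the same direction. Within those 7 the median difference was 0.95 and the highest 1.71. The low signal was therefore seen with both *elf1* probes, while its fold was not the same for each.

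**Figure D1:**
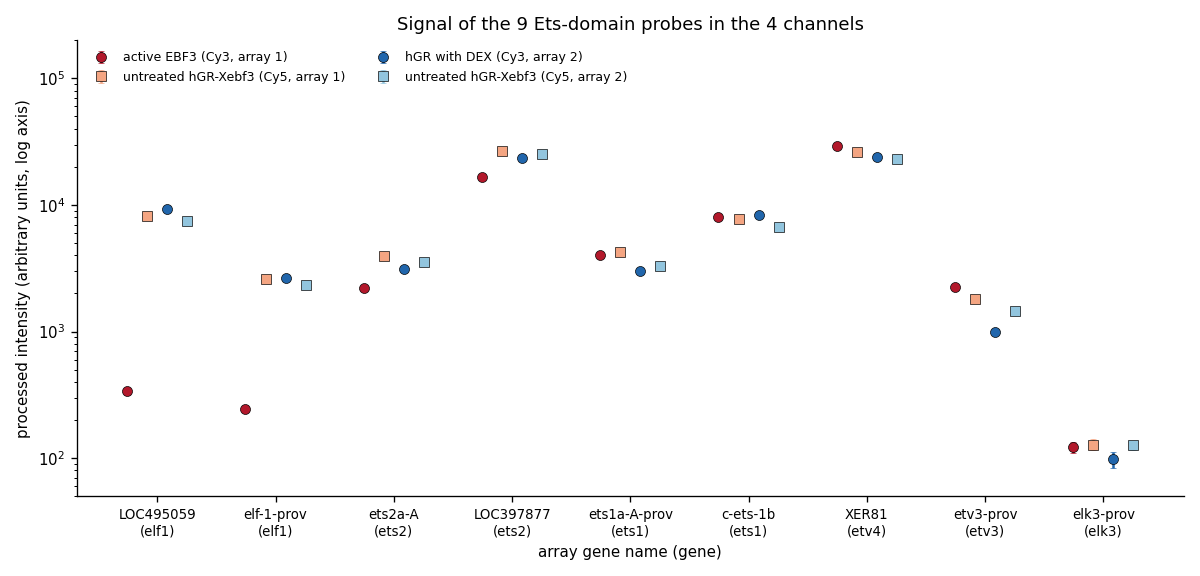
Processed intensity (arbitrary units, log axis) of the 9 Ets-domain probes in each of the 4 channels: active EBF3 caps and untreated caps on array 1, hGR caps with DEX and untreated caps on array 2. Bars, mostly smaller than the symbols, are the software's error of each signal, not of the ratio. For the *elf1* probes only the active EBF3 channel is low, at 338 and 246 units, and for elk3-prov all 4 channels are near 100.

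ETS2 is a target of Ras and ERK signalling in mammalian cells. Both *ets2* probes were lower in active EBF3 caps, by less than 2-fold. LOC397877, one of the brighter Ets probes, had 16531 ± 278 in active EBF3 caps and 26747 ± 394 in untreated caps, against 23519 ± 418 in hGR caps and 25426 ± 417 in untreated caps on the other array. Its log2 ratios were -0.69 ± 0.17 with active EBF3 and -0.11 ± 0.16 with hGR. ets2a-A, at a lower signal, had 2222 ± 54.8 in active EBF3 caps and 3937 ± 51.1 in untreated caps, and 3091 ± 49.96 in hGR caps and 3559 ± 42.7 in untreated caps. Its log2 ratios were -0.83 ± 0.18 and -0.20 ± 0.17. The *ets2* probes differed by 0.13 on the active EBF3 array, closer than the median pair. The active EBF3 channel was the lowest of the 4 for each probe, at 1.62-fold and 1.77-fold below untreated caps, with no replicate. The SD of the log2 ratio over all well-measured probes of that array was 0.55. Of all probes on the active EBF3 array, 4.42% had a lower ratio than LOC397877 and 3.05% a lower ratio than ets2a-A.

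ETS1, which acts in mammalian lymphocytes, endothelium and neural crest-derived cells, differed little between caps. c-ets-1b had 7999 ± 121 in active EBF3 caps and 7760 ± 77.2 in untreated caps, and 8262 ± 124 in hGR caps and 6697 ± 83.7 in untreated caps. For ets1a-A-prov the signals were 4054 ± 78.4 in active EBF3 caps and 4279 ± 50.7 in untreated caps, and 3014 ± 63.9 in hGR caps and 3318 ± 53.4 in untreated caps. The log2 ratios with active EBF3 were 0.04 ± 0.16 and -0.08 ± 0.17, within the error of the spots. With hGR they were 0.30 ± 0.17 for c-ets-1b and -0.14 ± 0.17 for ets1a-A-prov, on either side of zero.

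XER81, an Ets factor of the PEA3 group whose transcription in *Xenopus* embryos is known to depend on FGF signalling, gave a bright spot in all 4 channels. It had 29265 ± 500 in active EBF3 caps and 26214 ± 201 in untreated caps, and 24096 ± 313 in hGR caps and 23131 ± 228 in untreated caps. The log2 ratios were 0.16 ± 0.16 and 0.06 ± 0.16, both within the spot error. Signals of different probes are not compared as transcript levels, since each probe hybridizes with its own efficiency.

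ETV3, a repressor of transcription in mammalian cells, was the Ets factor with the largest difference in the upward direction, and most of it lay on the hGR array. etv3-prov had 2267 ± 50.1 in active EBF3 caps and 1819 ± 33.9 in untreated caps, a log2 ratio of 0.32 ± 0.17. It had 993 ± 25.8 in hGR caps and 1454 ± 22.5 in untreated caps, a log2 ratio of -0.55 ± 0.18. The lowest of the 4 channels was therefore hGR with DEX, and the highest was active EBF3. A further *etv3* probe, LOC495299, whose description does not name an Ets factor, had log2 ratios of 0.03 with active EBF3 and -0.20 with hGR, in the same order but smaller.

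ELK3, in mammals a ternary complex factor that binds DNA with serum response factor, was not measured above background. elk3-prov had 122 ± 12.3 in active EBF3 caps and 128 ± 13.0 in untreated caps, and 98.0 ± 14.2 in hGR caps and 126 ± 9.78 in untreated caps, none of them well above background. No fold is given for it.

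**Figure D2:**
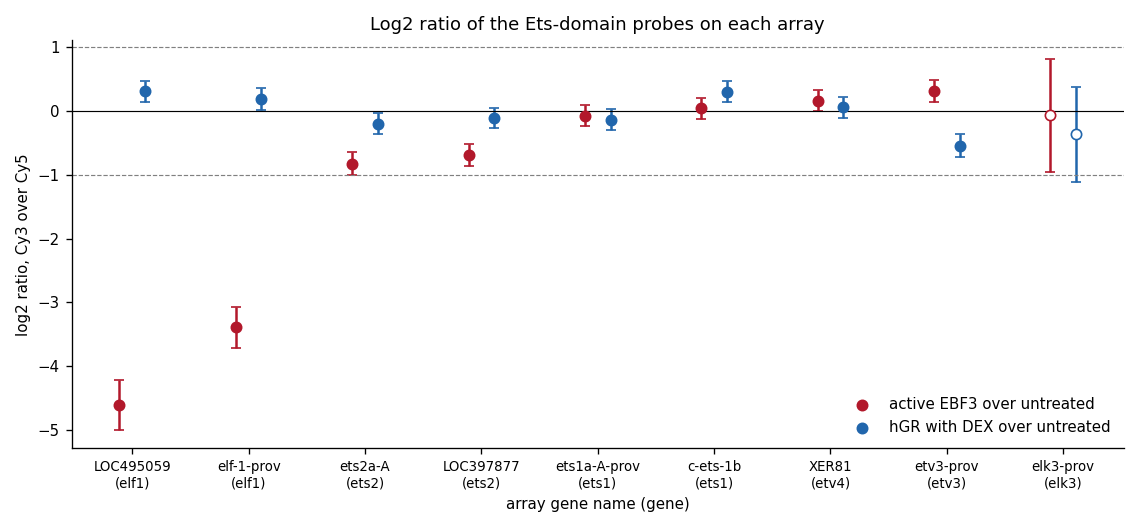
Log2 ratio of Cy3 over Cy5 for the 9 Ets-domain probes, for active EBF3 over untreated caps and for hGR with DEX over untreated caps. Bars are the software's error of 1 spot, dashed lines mark 2-fold, and open symbols mark elk3-prov, which was not well above background. Only the *elf1* probes pass 2-fold, at -4.61 and -3.39 on the active EBF3 array.

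Of the 9 Ets probes, 2 passed 2-fold on the active EBF3 array, both lower and both *elf1*. Of all uniform gene probes on that array, 4.14% passed 2-fold in either direction and 2.03% were at least 2-fold lower, and of those with both channels well above background 4.92% passed. Because LOC495059 was selected on this ratio and elf-1-prov reads the same gene, nothing is read from their share. The median log2 ratio of the 9 probes was -0.08, beside -0.09 over all uniform probes, and the other 7 probes ran from -0.83 to 0.32. With both channels well above background, the median was -0.39 over 8 Ets probes, beside 0.002 over all such probes. Both *elf1* probes are among the 8. On the hGR array 0 of the 9 passed 2-fold, where 5.09% of all uniform probes did, and 2.3% of those with both channels well above background. There the median of the 9 was -0.11, beside -0.06 over all probes, with a range of -0.55 to 0.31. With both channels well above background on the hGR array, it was -0.03 for the Ets probes and 0.01 over all. The share of 5.09% on that array depended on the measure. From processed signals 217 uniform probes were at least 2-fold higher and 870 lower, and by the deposited log10 ratio 217 and 363.

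Setting active EBF3 caps against hGR caps compares caps that both received DEX. As the difference of the log2 ratios, active EBF3 minus hGR, LOC495059 had -4.92 (30.2-fold lower) and elf-1-prov -3.58 (11.95-fold lower). Taken directly between the Cy3 channels after normalization between arrays, the differences were -5.02 and -3.70. The same probes differed by 1.08-fold and 1.09-fold between the Cy5 channels, so the untreated caps gave nearly the same *elf1* signals on both arrays. For the other well-measured probes the difference was 0.87 for etv3-prov, -0.62 for ets2a-A, -0.58 for LOC397877, -0.26 for c-ets-1b, 0.10 for XER81 and 0.06 for ets1a-A-prov. All 6 were smaller than 2-fold. Taken directly between the Cy3 channels, etv3-prov (0.91), ets2a-A (-0.73) and LOC397877 (-0.69) differed by more than the SD of 0.63 of that measure. This SD is the spread over all probes between unlike caps and not an error, so these probes are not set apart by it. Past 2-fold in the difference of the log2 ratios were 2 of the 8 well-measured Ets probes, both *elf1*, and 6.57% of all probes well above background in all 4 channels. The active EBF3 ratio, on which LOC495059 was selected, enters this difference, and elf-1-prov reads the same gene. Nothing is therefore read from that count. The comparisons share untreated caps described alike, and slide and group cannot be told apart.

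The low ratio of *elf1* with active EBF3 and near-equal signal with hGR was shared by other probes. At or below the ratio of elf-1-prov on the active EBF3 array were 37 probes other than *elf1*. Of these, 23 had both channels well above background on that array, and 19 of the 23 were within 2-fold on the hGR array. Of all probes with both channels well above background on the hGR array, 97.7% were within 2-fold, so nothing is read from that count. Likeness to LOC495059 was measured as the distance over the log2 ratios of the 2 arrays, among 4682 annotated probes well above background in all 4 channels. The nearest was MGC68905, an epidermal type I cytokeratin of the gastrula, with log2 ratios of -4.52 with active EBF3 and 0.18 with hGR. Next came xom-A (*ventx2.2*, -4.59 and 0.10) and LOC397948 (*ventx2.1*, -4.80 and 0.65), homeobox genes that respond to BMP in the ventral embryo. After them were LOC494752 (*stx19*, a syntaxin; -4.54 and -0.13) and MGC53484, described as similar to tripartite motif 29 (-4.13 and 0.00). elf-1-prov was at rank 16 in this order, with a distance of 1.22. The ratio of LOC495059 on the active EBF3 array had chosen it, so its neighbours are a description.

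**Figure D3:**
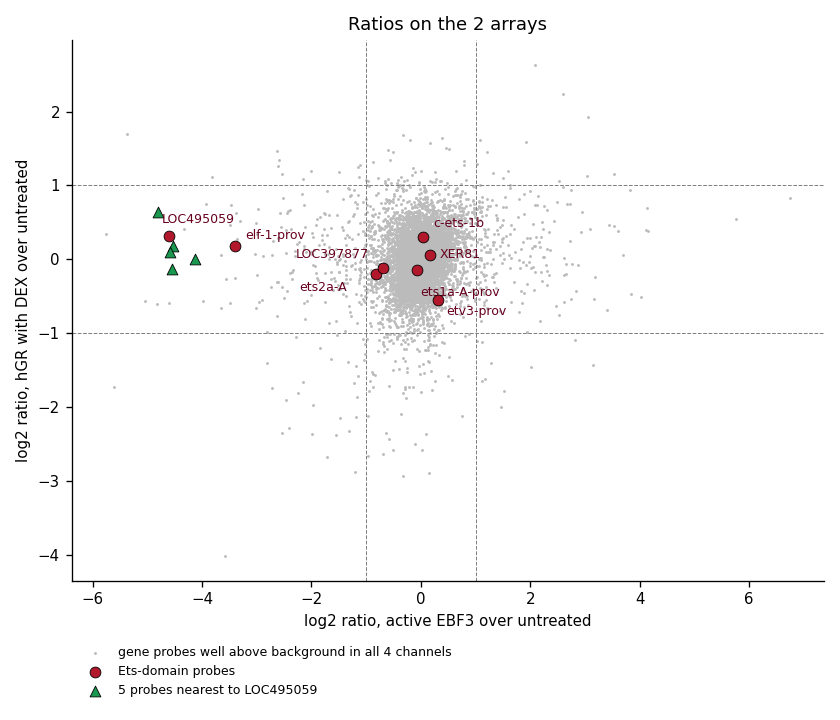
Log2 ratio with active EBF3 (horizontal) against log2 ratio with hGR (vertical) for gene probes well above background in all 4 channels (grey), the 8 Ets-domain probes among them (red, labelled) and the 5 probes nearest to LOC495059 (green triangles). Dashed lines mark 2-fold. The *elf1* probes lie far to the left near the horizontal axis, and the other Ets probes lie inside the 2-fold lines.

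Markers of epidermis, the fate of untreated caps, and of tissues in which Ets factors are known are set beside *elf1* by their own ratios, where 4.14% of all uniform probes passed 2-fold with active EBF3 and 5.09% with hGR. Among probes with both channels well above background, these shares were 4.92% and 2.3%. Of 6 epidermal marker probes, 2 passed 2-fold with active EBF3, both lower, and 4 did not. The keratin probe krt1-2-prov (*krt70*) had a log2 ratio of -4.83 with active EBF3 and -0.61 with hGR, and dlx3-A-prov had -1.94 with active EBF3, its spot on the hGR array being not uniform. LOC397756, a further *krt70* probe, had -0.97 with active EBF3 and 0.12 with hGR, and Tcfap2a had -0.59 and 0.46. Marker probes were filtered for uniform spots but not for saturation, and LOC397756 was by far the brightest of them. Whether saturation limited its ratios was not tested. Of the *tp63* probes, LOC399036 had 334 in active EBF3 caps and 332 in untreated caps, a log2 ratio of 0.01, and tp73l-A was not well above background in any channel. Over the 5 epidermal probes uniform on both arrays, the summed signal was 418321 in active EBF3 caps and 849193 in untreated caps, and 632690 in hGR caps and 592713 in untreated caps. LOC397756 made up 95.4% to 99.3% of these sums, and its untreated signals were 815528 and 565158 on the active EBF3 and hGR arrays. Without it, the sums were 2900 in active EBF3 caps and 33666 in untreated caps, and 19587 in hGR caps and 27555 in untreated caps. The order on the hGR array then turned. Because each probe hybridizes with its own efficiency, sums over this and the following marker lists are not read as marker levels.

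Of 4 probes for blood and endothelial markers, 3 passed 2-fold with active EBF3. lmo2-A was higher (log2 ratio 3.59), LOC398028 (*tal1*) was at least 22.3-fold higher, XGATA-2 was lower (-3.81), and gata1a-A was not well above background in any channel. With hGR, XGATA-2 passed 2-fold in the other direction, at 1.11. The list summed to 10419 in active EBF3 caps and 15478 in untreated caps, and to 32047 in hGR caps and 15070 in untreated caps. On the active EBF3 array the order turned without XGATA-2, the sums then being 9359 in active EBF3 caps and 588 in untreated caps, and 579 in hGR caps and 515 in untreated caps. Of the mesoderm marker probes 3 of 6, and of the neural marker probes 2 of 7, passed 2-fold with active EBF3, each of them higher, and 0 of either passed on the hGR array. These were LOC397758 (*myod1*, 6.74), XMyf-5 (2.90) and LOC398065 (*eomes*, 1.19), and neurod1-A (3.06) and Sox-2 (2.73). The untreated signals on the active EBF3 and hGR arrays disagreed for LOC397758 (645 and 246) and XMyf-5 (479 and 71.9, the latter not well above background). Within 2-fold with active EBF3 were LOC495078 (0.72), Brat (0.64) and Xombi (0.26), and sox3 (0.22) and X-NGNR-1b (-0.50). On that array 3 of the 7 neural probes had neither channel well above background. The mesoderm probes summed to 91462 in active EBF3 caps, of which LOC397758 made up 75.3%, and to 15108 in untreated caps, and to 7872 in hGR caps and 12131 in untreated caps. The neural probes summed to 196517 in active EBF3 caps and 121169 in untreated caps, and to 97928 in hGR caps and 103579 in untreated caps. The sox3 probe made up 65.5% of the active EBF3 sum and 87.4% to 92.6% of the others. Without sox3 the sums were 67785 in active EBF3 caps and 10704 in untreated caps. On the hGR array they were then 12313 in hGR caps and 7674 in untreated caps, the order having turned. Some markers planned for these lists, among them *krt12*, *kdr*, *wnt8a* and *tubb2b*, were matched by no probe. The part of the markers, and of the cells that carry them, in the *elf1* result was not tested.

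Beyond the probes found by description, 5 probes for 4 Ets family genes or partners, *etv3* among them, were matched by symbol. Of these, 0 passed 2-fold on either array. Over all uniform probes 4.14% passed with active EBF3 and 5.09% with hGR, so with 5 probes nothing is read from that count. The median log2 ratio of the 5 was -0.16 with active EBF3 and -0.16 with hGR, beside -0.09 and -0.06 over all uniform probes. GABPA carries an Ets domain and binds DNA with GABPB1, which has none. gabpa-prov had log2 ratios of 0.16 and -0.05, gabpb1-prov -0.21 and -0.13, and X-beta 1-1b, a further *gabpb1* probe, -0.16 and -0.16. Xlfli (*fli1*), a regulator of blood vessel and blood development, was not well above background in any channel. The same was true of MGC53020, described as similar to *spi1*, which was looked up after values had been seen.

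Genes of the FGF and MAPK pathway, which acts on many Ets factors, were found by their descriptions. Past 2-fold with active EBF3 were 8 of 57 such probes, 3 of them higher and 5 lower, and the median log2 ratio was -0.05. On the hGR array 1 was higher and 2 were lower, with a median of -0.18. The list holds 23 probes for other members of the Ras superfamily, such as Rab and Rap proteins. Without them, 3 of 34 probes were higher and 2 lower with active EBF3.

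Among the ligands, FGF-8b (*fgf8*) had 10575 in active EBF3 caps and 1898 in untreated caps, a log2 ratio of 2.48, against 1046 in hGR caps and 1622 in untreated caps, a log2 ratio of -0.63. fgf9-A was at least 5.72-fold higher in active EBF3 caps, its untreated channel being not well above background. FRL1, first described as a ligand of the FGF receptor and now placed with the EGF-CFC co-receptors (*tdgf1.3*), had log2 ratios of -2.36 with active EBF3 and -0.26 with hGR. Among 5 receptor probes, LOC397701 (*fgfr4*) had log2 ratios of -1.78 with active EBF3 and 0.63 with hGR, while Fgfr2 had 0.15 and -1.05. Fgfr2 was named after its values had been seen.

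None of the 21 probes in the class of cytoplasmic kinases, Ras and adaptors passed 2-fold on either array. Neither channel was well above background for 7 of them on the active EBF3 array and for 6 on the hGR array. The class took in every listed probe not placed elsewhere, among them g3bp-prov, sh3glb2-prov, rasa3-prov and mapk8-prov. The count is therefore not one of Ras, Raf, MEK and ERK alone. Of the 2 inhibitors, MGC68682, the MAP kinase phosphatase X17C, had log2 ratios of 2.20 with active EBF3 and -0.18 with hGR, and LOC398313 (*spry2*) had -0.73 and -0.27. Among other Ras superfamily members, LOC398404 (*ras-dva1*) was lower with active EBF3 (-2.55) and higher with hGR (1.16). Rap2b was lower on both arrays (-1.18 and -1.45), and rap2c-prov had -1.09 with active EBF3 and -0.61 with hGR. Over all probes, 4.14% passed 2-fold with active EBF3 and 5.09% with hGR. Of those with both channels well above background, 4.92% and 2.3% passed. With 1 array each, nothing is called particular to the pathway.

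**Figure D4:**
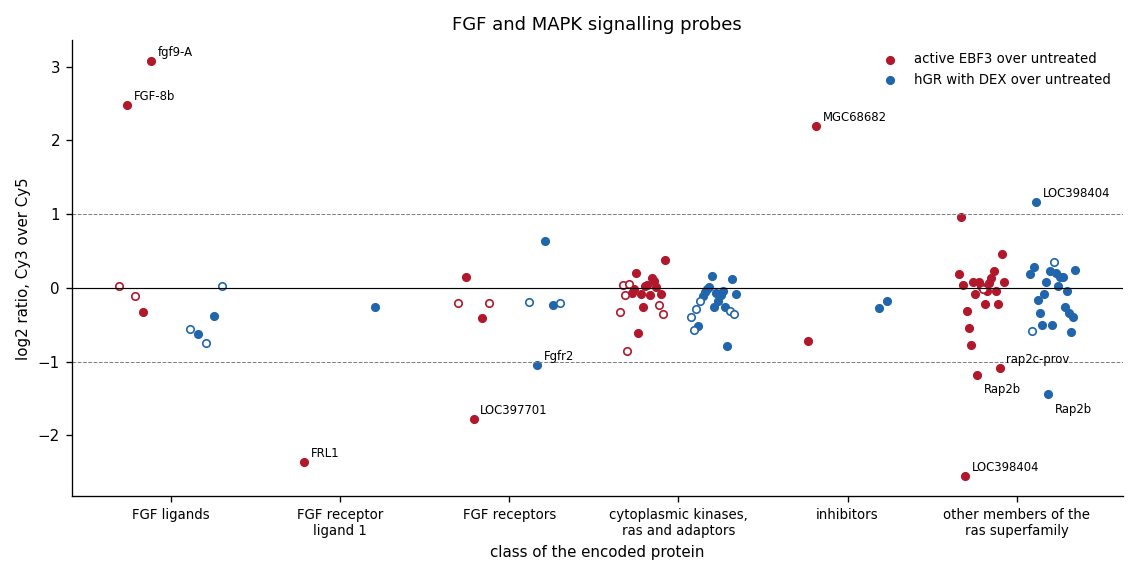
Log2 ratio of Cy3 over Cy5 of the 57 FGF and MAPK probes by class of the encoded protein, for active EBF3 over untreated caps (red) and hGR with DEX over untreated caps (blue). Open symbols had neither channel well above background, dashed lines mark 2-fold, and probes past 2-fold are named. No probe in the class of cytoplasmic kinases, Ras and adaptors, which holds all listed probes not placed elsewhere, lies outside the 2-fold lines.

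The size of the *elf1* difference depended on the treatment of background. With normexp background correction and an offset of 50, the log2 ratio with active EBF3 was -3.04 for LOC495059 and -1.73 for elf-1-prov, and without the offset it was -4.42 and -3.10. Under every setting tried both *elf1* probes stayed more than 2-fold lower with active EBF3 and within 2-fold with hGR, and no other Ets probe passed 2-fold on either array. Signals without dye normalization were not among these settings. On the hGR array the background-subtracted signals alone gave negative log2 ratios for every Ets probe. They ran from -0.55 for LOC495059 to -1.06 for ets2a-A and -1.37 for etv3-prov. A 2-fold line around zero is therefore not applied to them.

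**Figure D5:**
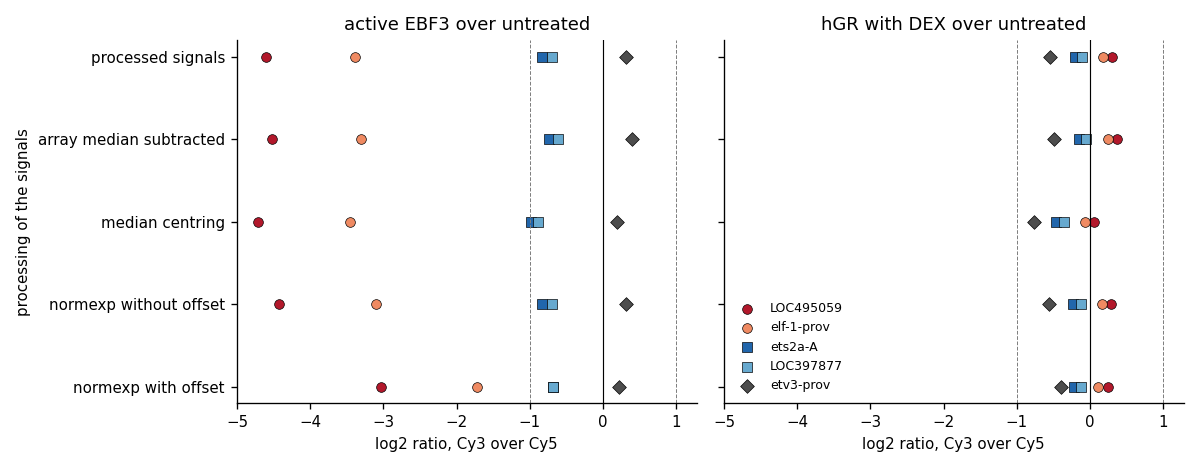
Log2 ratio of Cy3 over Cy5 of 5 Ets-domain probes under 5 ways of processing the signals (rows), for active EBF3 over untreated caps (left) and hGR with DEX over untreated caps (right). Dashed lines mark 2-fold. The *elf1* probes (circles) stay beyond the 2-fold line on the left, between -4.72 and -3.04 for LOC495059 and between -3.45 and -1.73 for elf-1-prov.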

How the data were processed

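Per the file headers, the deposited spot intensity values came from Agilent Feature Extraction 8.1.1.1, with scans at 10 µm per pixel. The software subtracted background with spatial detrending, normalized the dyes by LOWESS (smoothing factor 0.25) and put surrogates in place of spots it did not find above background. The deposited log10 ratio has Cy5 on top. The authors' series table, with scale and direction unstated, held 16142 and 16921 values of the active EBF3 and hGR arrays (medians -0.00100 and -0.00147). Of these values 100% equalled the deposited log10 ratio after its sign was turned.

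The measure here was log2 of the processed intensity ratio, Cy3 over Cy5, so that positive values are higher with DEX. It was taken for gene probes uniform in both channels, with the 2-fold threshold of the study's methods. "Well above background" is the software's own flag. Where only 1 channel had it, "at least N-fold" divides the brighter channel by the dim probe's own value or, if higher, by the lowest flagged value of that channel. These bounds and all comparisons of channels between arrays used Aquantile normalization in limma 3.58.1 (R 4.3.3). No test was run, since each comparison had 1 array, and the number of arrays limits the precision. Only the steps that take the ratio and count probes past 2-fold were tested on simulated ratios. Background correction, normalization and the bounds were not tested in that way.

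Groups came from the labels. The members, and the marker, Ets and FGF and MAPK lists, were chosen with earlier results of these data known. Named by rule were all members, Ets and FGF and MAPK list members past 2-fold on either array (at most 8 per list, the largest) and the 5 probes nearest to LOC495059. Marker probes, the Ets list members within 2-fold, Fgfr2 and LOC398313 were named after their values had been seen. RefSeq names (assembly Xenopus_laevis_v10.1, names only) matched 3763 of the 21495 probes and 8 of the 9 members, the exception being ets2a-A. The array annotation names no genome build, and probe sequences were not used here. Alternatives were normexp background correction with and without an offset of 50 followed by loess, median centring, subtraction of the array median, the log10 ratio, the series table, filters on dim and non-uniform spots, 5-fold, distinct genes and Cy3 set against Cy3.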

Additional observations from a re-analysis of the deposited data

Results flagged for a closer look

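Considered were the Ets probes, and those FGF and MAPK probes that passed 2-fold on either array. The following were picked out because their ratio was above zero on one array and below zero on the other, each by more than the 0.17 SD between the untreated channels. That SD compares Cy5 with Cy5 and is not the error of a ratio. The hGR ratio of elf-1-prov, 0.19 ± 0.17, barely passed it. LOC495059 was selected for its low active EBF3 ratio, so its sign on that array was fixed in advance, and elf-1-prov reads the same gene. With 1 array each, the difference between active EBF3 and hGR was not tested, and values are active EBF3 minus hGR on the log2 scale. Of the Ets probes, LOC495059 had -4.92, elf-1-prov -3.58 and etv3-prov 0.87. With median centring, the hGR ratios of the *elf1* probes were 0.06 for LOC495059 and -0.06 for elf-1-prov, so neither was above zero by more than that SD. Of the FGF and MAPK probes, LOC398404 (*ras-dva1*) had -3.70, LOC397701 (*fgfr4*) -2.41, MGC68682 (MAP kinase phosphatase X17C) 2.37 and FGF-8b 3.11.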

How the results depend on the processing

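The log2 ratio of LOC495059 on the active EBF3 array was -3.04 after normexp with an offset of 50 and -4.42 without the offset, and that of elf-1-prov was -1.73 and -3.10. Their differences, active EBF3 minus hGR, were -3.29 and -1.84 with the offset, and that of etv3-prov was 0.62. Counted as distinct genes, 1 Ets gene passed 2-fold on the active EBF3 array. At 5-fold, 2 Ets probes passed on that array and 0 on the hGR array. Median centring without a dye curve moved all 9 ratios on the hGR array by more than 0.17, to 0.06 for LOC495059, -0.06 for elf-1-prov and -0.76 for etv3-prov. Leaving out the other Ras superfamily members gave 5 FGF and MAPK probes past 2-fold with active EBF3 and 1 with hGR, a choice made after seeing the data. Subtracting the array median, the log10 ratio, the series table and the filters moved no Ets ratio they kept by more than 0.17. No paired analysis was possible because there was 1 array of each kind. Signal over background limits the *elf1* folds, and elk3-prov has no measured level.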
